A study of Homo sapiens with 18 samples.

Results

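The 85 genes described here had less RNA in human keratinocytes that expressed the TEAD inhibitor TEADi than in control cells 24 h after the virus was added. They were chosen by their 24 h values. A gene was kept if its mean log2(TMM value + 1) was lower by at least 0.585, which is 1.5-fold, and if all 3 Ad-TEADi libraries lay below all 3 Ad-GFP libraries. A TMM value is a CPM, a count relative to the reads of its library, after a scaling between libraries by the trimmed mean of M values. The rule was applied to the 13035 genes on chromosomes 1 to 22 and X that reached a value of 1 in 3 libraries or more, out of 15896 genes listed. It kept 92 genes, 0.706% of the 13035. Of these, CTGF, CYR61, GJA5, ADAMTS1, PTGS2, IL1A and ALOX5AP were set aside by name, which left the 85 members on 21 chromosomes. Since the 24 h libraries made the choice, their values are given without a test. The libraries of 12 h and 48 h carry the tests. They took no part in the limits on fold and overlap, but they counted toward the low-value filter. EEPD1 and RIMS2, among others, passed that filter only with their help.

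RNA with poly(A) tails was sequenced from N/TERT2G cells, 1 line of human keratinocytes immortalised with telomerase. The cells received an adenovirus, lacking its E1 and E3 genes and driven by the CMV promoter, at 25 infectious particles per cell (MOI 25). The virus carried GFP in the Ad-GFP groups and TEADi in the Ad-TEADi groups, and cells were taken at 12, 24 and 48 h, with 3 libraries in each of the 6 groups. TEADi joins GFP to the parts of YAP1, TAZ and VGLL4 that bind TEAD proteins, with a nuclear localisation signal, so every group carried an adenovirus and a form of GFP, and cells without virus were not analysed here. By the study's methods, control and treated wells of cell experiments were plated together. The sources used here do not say whether each library was a well of its own, and p-values then measure only the spread between these libraries.

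TEAD proteins are the DNA-binding factors through which the coactivators YAP1 and TAZ switch genes on, and the kinases of the Hippo pathway hold both coactivators in the cytoplasm. In epidermis, YAP1 and TAZ are known for keeping basal keratinocytes dividing. Known targets of the complex include secreted factors, matrix proteins and regulators of the cell cycle. TEAD proteins recognise the letters GGAATG, and E2F proteins, which switch on genes of DNA replication, recognise TTTCCCGC or TTTGGCGC. Neither motif holds the other.

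Both were searched on both strands in a window from 250 bases before to 50 bases after each gene's start (RefSeq, GRCh38.p14). The TEAD letters stood in 14% of all 35116 promoters of the table and the E2F letters in 2.27%. Among the 9832 promoters of genes that passed the low-value filter, the shares were 10.8% and 3.76%. Of the 85 members, 59 (69.4%) had an entry, fewer than the 80% needed, so the share of members with a motif was not compared. The TEAD letters stood in the windows of 14 of the 59 and the E2F letters in those of 4. They were not found in the windows of the other 45 and 55, which for the TEAD letters included EDN1, IL1B, PTX3, CD274, AMIGO2, AKAP12, ALPL and TCF7L1. The TEAD letters were found before the start of the secreted cytokine gene TNFSF15, the TEAD cofactor gene VGLL1, the matrix gene THBS1 and the actin crosslinker gene FLNC. The E2F letters were found before the start of E2F1 itself. These 5 are printed as examples, chosen with their values known, and their levels are described below. The 250 bases before each start are given 5′ to 3′ on the gene's strand, with the motif in capitals.

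TNFSF15 (chr9:114792531-114792780, minus strand): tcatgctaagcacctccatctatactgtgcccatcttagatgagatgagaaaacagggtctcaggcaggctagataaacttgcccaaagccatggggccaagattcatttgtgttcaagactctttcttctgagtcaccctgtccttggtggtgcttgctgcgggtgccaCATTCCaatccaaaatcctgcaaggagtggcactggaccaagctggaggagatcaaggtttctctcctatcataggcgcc
VGLL1 (chrX:136531965-136532214, plus strand): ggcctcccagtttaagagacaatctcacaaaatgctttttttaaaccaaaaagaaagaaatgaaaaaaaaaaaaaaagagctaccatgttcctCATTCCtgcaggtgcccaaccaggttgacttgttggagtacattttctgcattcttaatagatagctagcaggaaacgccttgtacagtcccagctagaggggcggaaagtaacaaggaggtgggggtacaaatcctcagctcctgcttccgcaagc
THBS1 (chr15:39580829-39581078, plus strand): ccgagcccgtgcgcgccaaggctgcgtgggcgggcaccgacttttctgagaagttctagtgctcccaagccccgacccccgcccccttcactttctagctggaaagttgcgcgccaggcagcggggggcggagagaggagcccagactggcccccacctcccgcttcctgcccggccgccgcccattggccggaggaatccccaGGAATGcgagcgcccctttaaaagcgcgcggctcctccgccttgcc
FLNC (chr7:128830156-128830405, plus strand): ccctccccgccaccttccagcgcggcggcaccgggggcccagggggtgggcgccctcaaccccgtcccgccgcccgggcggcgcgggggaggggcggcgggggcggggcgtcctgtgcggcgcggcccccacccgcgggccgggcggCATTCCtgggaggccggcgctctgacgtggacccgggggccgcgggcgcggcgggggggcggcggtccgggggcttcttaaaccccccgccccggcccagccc
E2F1 (chr20:33686386-33686635, minus strand): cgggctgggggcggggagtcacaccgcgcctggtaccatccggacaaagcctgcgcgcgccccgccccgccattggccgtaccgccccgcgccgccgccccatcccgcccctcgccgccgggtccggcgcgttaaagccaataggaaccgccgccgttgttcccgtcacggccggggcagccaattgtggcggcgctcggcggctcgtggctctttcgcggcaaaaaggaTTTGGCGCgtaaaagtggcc

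The motif began 80 bases before the start of TNFSF15, 157 before that of VGLL1, 46 before that of THBS1, 103 before that of FLNC and 20 before that of E2F1. In TNFSF15, VGLL1 and FLNC the letters are on the other strand and read CATTCC. A match of letters is a description of the window and not a measured binding site. PDE1C, LIMCH1, GLRX, STARD3NL, CHRNB1, LOXL3 and ADAMTS12 also held the TEAD letters in the window, and CDC6 and STARD3NL the E2F letters. RPL7A, which held both, and TNFAIP1 and GPSM3, which held the TEAD letters, are not printed because their 24 h values turned on libraries at 0 reads.

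The libraries held between 14.2 and 26.7 M estimated reads. All 15 keratinocyte markers were listed, though JUP was at 0 reads in Ad-GFP at 48 h, and their summed TMM value was 27674 to 29064 in Ad-GFP at 12 h, 42993 to 43566 in Ad-GFP at 48 h and 54381 to 58433 in Ad-TEADi at 48 h. Of the fibroblast, melanocyte, endothelial and immune markers, 8 of 12, 2 of 9, 4 of 12 and 4 of 15 were listed. The summed fibroblast markers were lower in Ad-TEADi, at 146 to 152 against 176 to 185 at 24 h and 131 to 137 against 182 to 185 at 48 h, and most of that sum was MFAP5, with means of 112 against 148 and 65.4 against 149. Of the 6 fibroblast markers tested at 48 h, MFAP5 and THY1 were called lower and COL1A1, FBLN1 and DCN higher, with a median of 0.46 on the log2(TMM value + 1) scale. DCN had means of 0.153 in Ad-GFP and 8.34 in Ad-TEADi. The summed immune markers were higher in Ad-TEADi, at 25.7 to 28.5 against 16.6 to 22.7 at 24 h and 50.5 to 59.7 against 34.3 to 39.96 at 48 h. Most of that sum was CD68, with means of 25.9 against 18.6 and 51.2 against 36.1. CD14, CSF1R and ITGAM had 48 h means of 1.21, 1.66 and 0.655 in Ad-TEADi and 0.186, 0.417 and 0.182 in Ad-GFP. The part of these markers in the results was not tested. Fewer cells of a kind and less RNA per cell cannot be told apart in such bulk samples.

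At 24 h the median difference of the 85 members was -0.72 on the log2(TMM value + 1) scale, and 18 members were at -1 or lower. The lowest values of all belonged to rows that switched between 0 reads and many reads within a group. Of the 85 members, 12 had, in at least 1 group of 3, a library under 1 read beside a library of 20 reads or more, and 114 of the 13035 genes had such a group. The 12 were RPL7A, a protein of the large ribosomal subunit, TNFAIP1, PQBP1, FUNDC2, GPSM3, TMEM50B, the AMPK subunit gene PRKAB2, the pseudogene SBDSP1, DGAT1, which makes triglycerides, the pseudogene NSUN5P2, TFPT and RP1-241P17.4. RPL7A shows the pattern. Its estimated reads in the Ad-GFP libraries at 24 h were 0, 16463 and 15459, and all 3 Ad-TEADi libraries were listed at 0. At 48 h the Ad-GFP libraries held 0, 24579 and 23524 reads and the Ad-TEADi libraries 19188, 21102 and 16351. Replicate 1 was also at 0 in both 12 h groups, so libraries at 0 occurred with either virus. For 9 of the 12, an Ad-GFP library of 24 h was itself at 0 reads, and its place above the Ad-TEADi libraries was set only by the scaling of the 1 read that was added to every value. No fold change is read from these rows.

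**Figure D1:**
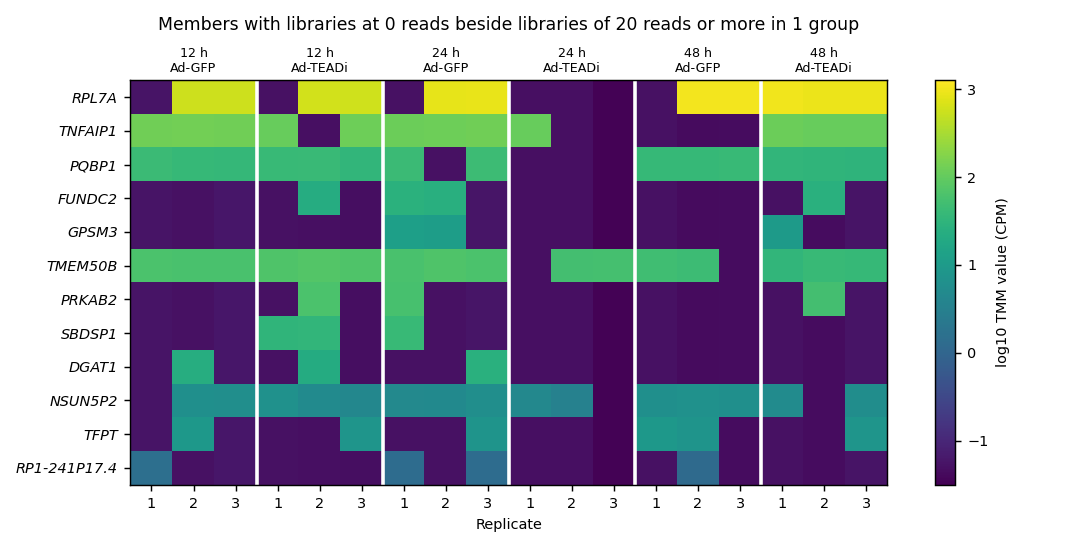
TMM value (log10 scale, colour) of the 12 members with libraries at 0 reads beside libraries of at least 20 reads in the same group; columns are the 18 libraries, 3 replicates in each of the 6 groups, and dark cells are libraries at their lowest possible value. RPL7A is dark in all 3 Ad-TEADi libraries at 24 h, and bright in all 3 at 48 h.

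The other 73 members, called steady here, had no such group. This division was made after the data were seen. Their median 24 h difference was -0.69, against 0.00 for all 13417 tested genes, and the lowest was -1.25, in TMEM200A, which encodes a transmembrane protein. The 24 h Ad-TEADi libraries were not alike. Replicate 1 was the highest of the 3 in 62 of the 73 and the lowest in 2, while replicate 2 was the lowest in 53. The median coefficient of variation of the steady members was 16.1% in Ad-TEADi at 24 h and between 6.82% and 11% in the other 5 groups. Just inside the limit were JPH1 and RIMS2 at -0.588 and TCF7L1 at -0.586, and just outside were GADD45B at -0.585 and DLEU2 and PLCB4 at -0.583. A further 15 genes passed the limit but overlapped. Expression was low for many members, with a mean under 5 over the 18 libraries in 26 of the 85 and of at least 10 in 45.

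At 12 h the members were slightly lower, and none passed both limits of the test. The question at this time was whether the fall had begun, in libraries that the rule used only for its low-value filter. A call needed an adjusted p under 0.05 and a change of 1.5-fold. By limma with adjustment over all 13417 genes, 0 of the 85 members were called lower and 0 higher, where 0.0298% and 0.0149% of all genes were. An unadjusted p under 0.05 was reached by 27 members and by 2458 of all genes. The median of the 73 steady members was -0.15, with quartiles of -0.23 and -0.07, against 0.00 for all genes, and 65 of the 73 were below 0. All 3 Ad-TEADi libraries lay below all 3 Ad-GFP libraries in 27 of the 85, against 11% of all genes, and above them in 2, against 10.9%.

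By adjusted p alone, 6 of the 85 were lower at 12 h, where 0.827% of all genes were, and 0 were higher, where 0.671% were. They were TCF7L1, ETS1, MIR503HG, CYGB, EDN1 and PROSER2. TCF7L1, a transcription factor of the Wnt pathway that represses its targets, lies at 2:85360533-85537512 (hg19). TCF7L1 had TMM values of 54.4, 56.4 and 52.3 in Ad-GFP and 41.6, 41.1 and 44 in Ad-TEADi at 12 h, with means of 54.4 ± 2.04 and 42.3 ± 1.56 (SD, n = 3). The groups did not overlap, and the difference was -0.36 ± 0.06 (SE) with an adjusted p of 0.00143. ETS1, a transcription factor of the ETS family at 11:128328656-128457454 (hg19), was the second. In Ad-GFP the 12 h TMM values of ETS1 were 192, 203 and 198, and in Ad-TEADi they were 161, 171 and 162, with means of 198 ± 5.79 and 165 ± 5.46 (SD, n = 3). Each Ad-TEADi library was below each Ad-GFP library, by -0.26 ± 0.05 on average, with an adjusted p of 0.0118. EDN1, the vasoconstrictor peptide endothelin at 6:12290596-12297428 (hg19), is a known target of YAP1. The 12 h TMM values of EDN1 were 19.10, 15.4 and 19.8 in Ad-GFP and 12, 13.7 and 13.8 in Ad-TEADi, with means of 18.1 ± 2.39 and 13.1 ± 1.03 (SD, n = 3). Its groups were apart too, with a difference of -0.43 ± 0.10 and an adjusted p of 0.0384. The difference of MIR503HG, a long noncoding RNA that hosts a microRNA, was -0.44 ± 0.09 and that of CYGB, the globin cytoglobin, was -0.30 ± 0.06. PROSER2 differed by -0.28 ± 0.07. All of these were smaller than 1.5-fold.

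At 48 h most members had fallen, and further than at 24 h. Of the 85, 63 were called lower, 74.1% of them, where 6.31% of all 13417 genes were. All 63 were among the 73 steady members, 86.3% of which were called. The 1 member called higher, where 6.29% of all genes were, was TNFAIP1, whose 3 Ad-GFP libraries were at 0 reads at 48 h. The median of the steady members was -1.19, with quartiles of -1.47 and -0.80, against -0.03 for all genes. All 3 Ad-TEADi libraries lay below all 3 Ad-GFP libraries in 69 members, against 31.9% of all genes, and above them in 3, against 26.8%. By adjusted p alone, 68 of the 85 were lower, where 27.8% of all genes were. On the deposited TPM values, 23 members were called lower, and 43 were with those values scaled up to the usual total of TPM. In 60 of the 73 steady members the difference was lowest at 48 h, intermediate at 24 h and highest at 12 h. The members were chosen for low 24 h values, which favours the order of 12 h above 24 h. In 0 of the 73 was the fall larger at 12 h than at 24 h.

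**Figure D2:**
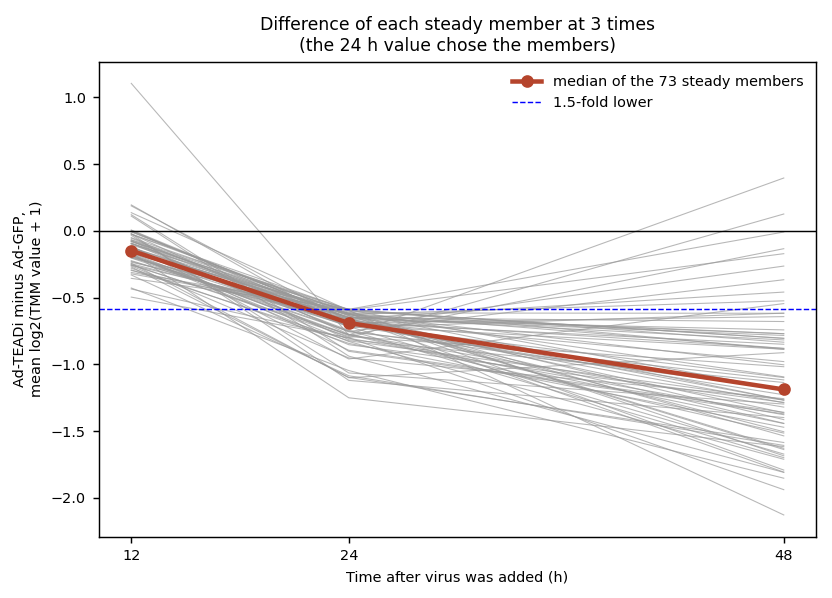
Difference in mean log2(TMM value + 1), Ad-TEADi minus Ad-GFP, of each of the 73 steady members (grey lines) and their median (red) at 12, 24 and 48 h. The median goes from -0.15 through -0.69 to -1.19; the 24 h values lie below the dashed 1.5-fold line by choice.

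**Figure D3:**
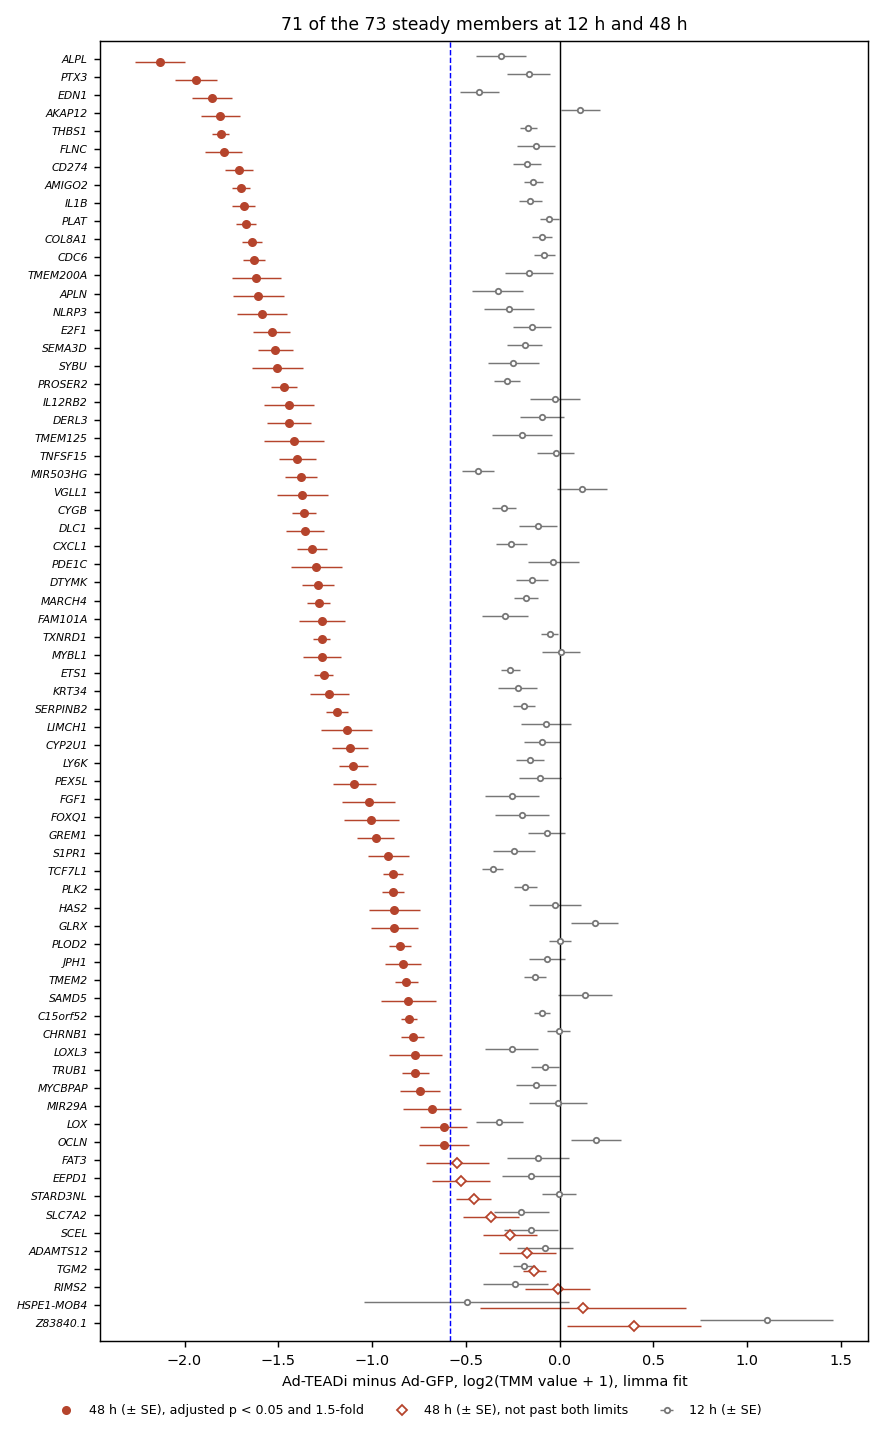
Ad-TEADi minus Ad-GFP on the log2(TMM value + 1) scale with its standard error in the limma fit, for 71 of the 73 steady members at 12 h (open circles) and 48 h (filled circles where called, open diamonds where not). At 48 h, 61 of those drawn are called, from ALPL at -2.13 to those just past the dashed 1.5-fold line, and 10 are not.

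The roles below were given to the 73 steady members only, and 86.3% of these were called lower at 48 h. Counts near that share are not particular to a role. All 6 steady members that encode transcription factors or their cofactors were called lower at 48 h. ETS1 had TMM values of 188, 178 and 163 in Ad-GFP and 75.4, 74.1 and 70.02 in Ad-TEADi at 48 h, with means of 177 ± 12.6 and 73.2 ± 2.81 (SD, n = 3). Its groups were far apart, at -1.26 ± 0.05 with an adjusted p of 2.25e-17. The call of ETS1 was lost on the deposited TPM values and kept with those scaled to the usual total. For TCF7L1 the fall was -0.89 ± 0.06, with an adjusted p of 2.19e-13. In Ad-GFP the 48 h TMM values of VGLL1 were 3.59, 3.98 and 3.56, and in Ad-TEADi they were 0.773, 0.796 and 0.89, with means of 3.71 ± 0.234 and 0.819 ± 0.0621 (SD, n = 3). VGLL1, a cofactor that binds TEAD proteins by the same kind of domain as TEADi carries, was lower in all 3 Ad-TEADi libraries, and the difference was -1.37 ± 0.13, with an adjusted p of 1.99e-09. Its promoter, printed above, holds the TEAD letters. At 24 h the VGLL1 values were 4.51, 4.84 and 3.94 in Ad-GFP and 2.55, 1.86 and 1.39 in Ad-TEADi, and at 12 h the groups overlapped at 2.06, 1.9 and 1.39 and 1.91, 1.96 and 2.16. The 48 h TMM values of E2F1 were 12.9, 10.4 and 9.43 in Ad-GFP and 3.4, 3.14 and 2.73 in Ad-TEADi, with means of 10.9 ± 1.78 and 3.09 ± 0.34 (SD, n = 3). E2F1 drives the entry into S phase, and its groups did not overlap, with a difference of -1.54 ± 0.10 and an adjusted p of 6.87e-13. MYBL1, of the MYB family, differed by -1.27 ± 0.10 and the forkhead factor FOXQ1 by -1.0 ± 0.14. Both are named after their values were seen, as are all genes below that the naming rule did not select.

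Of the steady members that encode secreted ligands or act in innate immunity, 10 of 10 were called lower at 48 h. Among all steady members, 86.3% were called lower. The differences of the 10 lay between -1.94 and -0.98. EDN1 had TMM values of 16.9, 19.3 and 18.1 in Ad-GFP and 4.95, 3.67 and 4.28 in Ad-TEADi at 48 h, with means of 18.1 ± 1.2 and 4.3 ± 0.638 (SD, n = 3). At 24 h they were 17.6, 18.1 and 16.8 in Ad-GFP and 8.53, 8.34 and 7.08 in Ad-TEADi, so the control values stayed in 1 range while those of Ad-TEADi were lower at each later time. The 48 h difference was -1.85 ± 0.10, with an adjusted p of 2.89e-14. In Ad-GFP the 48 h TMM values of IL1B were 156, 142 and 135, and in Ad-TEADi they were 49.5, 42.5 and 41, with means of 145 ± 10.6 and 44.3 ± 4.55 (SD, n = 3). IL1B is interleukin-1 beta, a main cytokine of inflammation, and it lay lower in every Ad-TEADi library, by -1.69 ± 0.06 with an adjusted p of 3.02e-18. The 48 h TMM values of PTX3 were 22.5, 19.9 and 20.9 in Ad-GFP and 5.61, 5.17 and 3.67 in Ad-TEADi, with means of 21.1 ± 1.3 and 4.82 ± 1.02 (SD, n = 3). PTX3 is pentraxin 3, a secreted pattern-recognition protein that also binds matrix, and its difference of -1.94 ± 0.11 was among the lowest 2 of the members, with an adjusted p of 6.02e-14. At 24 h PTX3 was at 34.6, 35.6 and 30.2 in Ad-GFP, the highest of the 3 times, and at 22.2, 17 and 17.4 in Ad-TEADi.

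TNFSF15, a cytokine of the TNF family, was at 27, 24.6 and 23.4 in Ad-GFP and 14, 8.78 and 10.6 in Ad-TEADi at 24 h. At 48 h the values were 16.8, 16.5 and 14.3 and 5.05, 5.66 and 5.45, lower in all 3 Ad-TEADi libraries, and the difference was -1.40 ± 0.10 with an adjusted p of 3.44e-12. At 12 h they overlapped, with 12.5, 12.9 and 12.9 against 11, 14.7 and 12.2. The 48 h call of TNFSF15 was lost on the deposited TPM values and kept with those scaled to the usual total. CXCL1, a chemokine that attracts neutrophils, has near-identical copies among which reads can be split, so its level is uncertain. It was 36.5, 32.9 and 28.1 in Ad-GFP and 12, 12.8 and 12.2 in Ad-TEADi at 48 h, a difference of -1.32 ± 0.08. NLRP3, the sensor of the inflammasome that activates IL1B, was at 5.36, 4.84 and 4.09 against 0.773, 0.973 and 1.0, a difference of -1.59 ± 0.13. The semaphorin SEMA3D, a guidance cue, differed by -1.52 ± 0.09, the peptide hormone APLN by -1.61 ± 0.14, the growth factor FGF1 by -1.02 ± 0.14 and the BMP antagonist GREM1 by -0.98 ± 0.10. In each of these the 48 h groups did not overlap.

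Of the 9 steady members that encode receptors or other surface proteins, 8 were called lower at 48 h, where 86.3% of all steady members were. CD274 had TMM values of 30.03, 31.1 and 28 in Ad-GFP and 7.88, 8.09 and 9.18 in Ad-TEADi at 48 h, with means of 29.7 ± 1.58 and 8.38 ± 0.696 (SD, n = 3). CD274, the immune checkpoint ligand PD-L1, differed by -1.71 ± 0.08 with an adjusted p of 1.75e-16, and its groups were apart by more than the whole spread within either. In Ad-GFP the 48 h TMM values of AMIGO2 were 90.7, 92.5 and 92.1, and in Ad-TEADi they were 28.7, 28.3 and 25.8, with means of 91.8 ± 0.905 and 27.6 ± 1.61 (SD, n = 3). AMIGO2 is an adhesion molecule with leucine-rich repeats, and the 3 libraries of each group were close together, so that its difference of -1.70 ± 0.05 had an adjusted p of 2.29e-20. The 48 h TMM values of S1PR1 were 7.28, 7.13 and 6.72 in Ad-GFP and 3.25, 4.16 and 2.56 in Ad-TEADi, with means of 7.04 ± 0.293 and 3.32 ± 0.801 (SD, n = 3). S1PR1 is a receptor for sphingosine-1-phosphate, and the difference was -0.91 ± 0.11 with an adjusted p of 9.45e-08. Its 24 h values were 14.4, 13.4 and 14.1 in Ad-GFP and 6.94, 4.81 and 6.4 in Ad-TEADi, so the values of both groups were lower at 48 h than at 24 h. The 48 h call of S1PR1 was lost on the deposited TPM values and with a pseudocount of 5. It was kept on TPM scaled to the usual total.

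The interleukin-12 receptor subunit gene IL12RB2 differed by -1.44 ± 0.13, LY6K by -1.10 ± 0.08, the acetylcholine receptor subunit gene CHRNB1 by -0.78 ± 0.06 and OCLN, a tight junction protein, by -0.62 ± 0.13. The call of OCLN was lost without Ad-GFP replicate 1 or Ad-TEADi replicate 1 of 48 h and with a pseudocount of 5. The member not called was FAT3, a giant cadherin. Its estimated reads at 48 h were 21, 7 and 5 in Ad-GFP and 0 in all 3 Ad-TEADi libraries, which allows up to 3 reads in each, so no fold is given. At 24 h the reads were 42, 35 and 31 against 12, 8 and 13.

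Among the 11 steady members that encode matrix proteins, their modifiers or extracellular proteases and inhibitors, 9 were called lower. THBS1 had TMM values of 3865, 3723 and 3754 in Ad-GFP and 1106, 1146 and 991 in Ad-TEADi at 48 h, with means of 3781 ± 74.4 and 1081 ± 80.3 (SD, n = 3). THBS1 is thrombospondin 1, a matrix glycoprotein and known YAP1 target, at 15:39873280-39891668 (hg19). It was lower in Ad-TEADi by -1.81 ± 0.05, with an adjusted p of 3.26e-21. At 24 h the values were 5034, 4949 and 4942 against 3935, 2825 and 2842, with replicate 1 of Ad-TEADi above the other 2. At 12 h they were 6799, 7595 and 7356 against 6373, 6454 and 6528, apart in rank, with a difference of -0.17 ± 0.05 that missed the threshold at an adjusted p of 0.0644.

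In Ad-GFP the 48 h TMM values of PLAT were 199, 184 and 179, and in Ad-TEADi they were 59.3, 58.3 and 56.5, with means of 187 ± 10.1 and 58 ± 1.46 (SD, n = 3). PLAT is tissue plasminogen activator, the protease that makes plasmin, and its level at 12 h had been 91.2, 101 and 94.7 in Ad-GFP and 87.3, 92.3 and 96.2 in Ad-TEADi, with overlap. The 48 h difference was -1.67 ± 0.05, with an adjusted p of 1.01e-19. SERPINB2, an inhibitor of plasminogen activators, was at 586, 575 and 589.9 in Ad-GFP and 257, 271 and 240.0 in Ad-TEADi at 48 h, a difference of -1.19 ± 0.06 with an adjusted p of 4.83e-13. The protease and its inhibitor were thus both lower in every Ad-TEADi library. The collagen gene COL8A1 differed by -1.64 ± 0.05, the collagen lysyl hydroxylase gene PLOD2 by -0.85 ± 0.06, and the lysyl oxidases LOX and LOXL3 by -0.62 ± 0.13 and -0.77 ± 0.14. The hyaluronan synthase gene HAS2 differed by -0.88 ± 0.14, and TMEM2, which encodes a hyaluronan-degrading surface protein, by -0.82 ± 0.06. The call of LOX was lost without Ad-TEADi replicate 2 of 48 h, with a pseudocount of 5 and on TPM scaled to the usual total.

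The matrix members not called at 48 h were TGM2 and ADAMTS12. TGM2 is tissue transglutaminase, which crosslinks proteins. At 24 h it was at 65.4, 55.4 and 57.2 in Ad-GFP and 41.7, 27.7 and 33.9 in Ad-TEADi. At 48 h it was at 66.1, 60.8 and 55.7 and 58.8, 56.4 and 50.9, with overlap, and the difference of -0.13 ± 0.06 had an adjusted p of 0.0641. From 24 h to 48 h the Ad-TEADi values were thus higher and the Ad-GFP values about the same, which was not tested since the 24 h libraries chose the gene. The metalloprotease gene ADAMTS12 was at 0.91, 0.562 and 0.667 against 0.773, 0.309 and 0.501 at 48 h, with overlap.

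**Figure D4:**
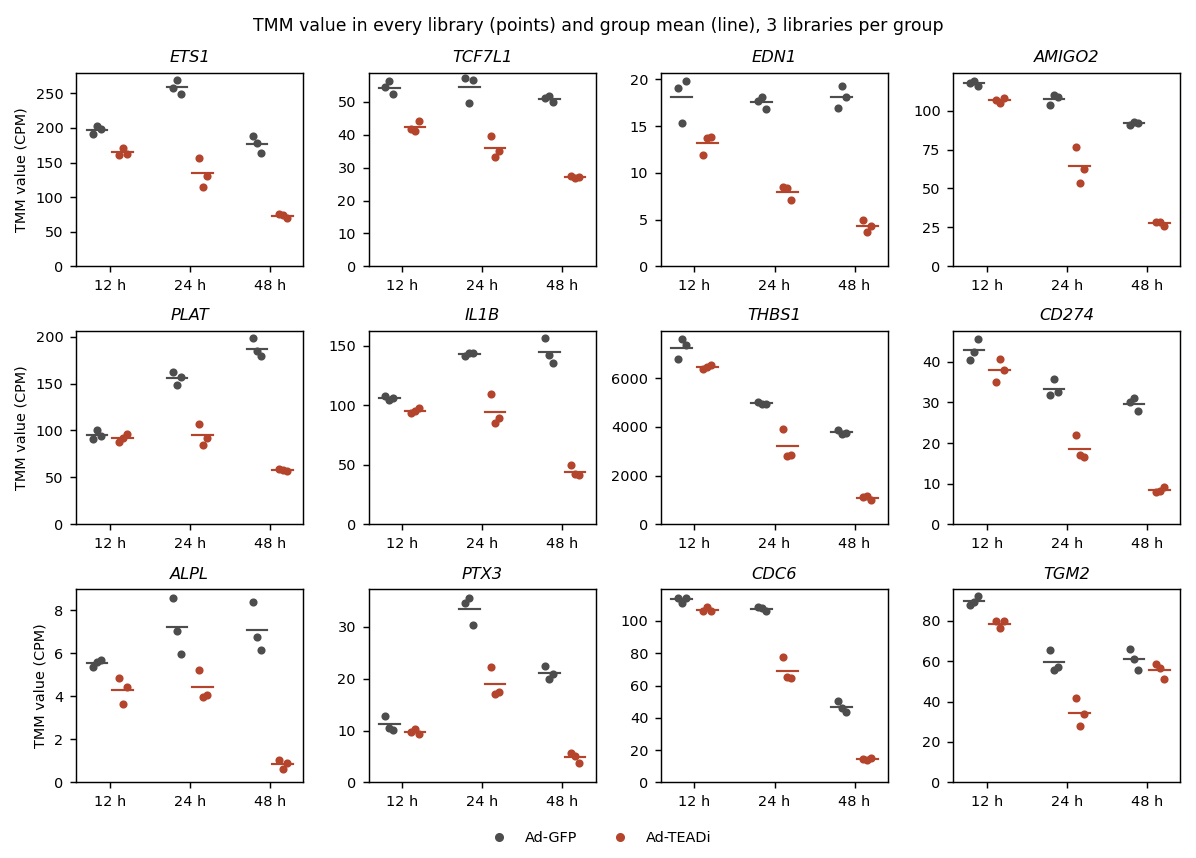
TMM value (linear axis from 0) in every library of 12 members at 12, 24 and 48 h; grey points are Ad-GFP and red points Ad-TEADi, with 3 libraries and the mean line in each group. In 11 of the panels the 48 h groups are apart, and in TGM2 they overlap.

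Each of the 5 steady members of the actin group was called lower at 48 h, between -1.81 and -1.14. The 48 h TMM values of AKAP12 were 14.2, 14.4 and 11.8 in Ad-GFP and 2.73, 3.58 and 3.06 in Ad-TEADi, with means of 13.4 ± 1.44 and 3.12 ± 0.429 (SD, n = 3). AKAP12 is a scaffold for protein kinases at the cell cortex, and it differed by -1.81 ± 0.10 with an adjusted p of 3.8e-14, although at 12 h the groups overlapped at 13.8, 17.2 and 15.5 and 16.8, 17.3 and 16.2. FLNC had TMM values of 20.2, 20.8 and 18.7 in Ad-GFP and 4.64, 5.04 and 5.45 in Ad-TEADi at 48 h, with means of 19.9 ± 1.08 and 5.04 ± 0.407 (SD, n = 3). FLNC is filamin C, which crosslinks actin filaments, and its 48 h values were apart by -1.79 ± 0.10 with an adjusted p of 2.49e-14. The filamin-binding protein gene FAM101A differed by -1.27 ± 0.12, the tumour suppressor gene DLC1 by -1.36 ± 0.10 and LIMCH1, which activates nonmuscle myosin, by -1.14 ± 0.13.

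The 3 steady members of DNA replication and repair were also all called. In Ad-GFP the 48 h TMM values of CDC6 were 50.7, 46.2 and 43.4, and in Ad-TEADi they were 14.6, 13.7 and 15, with means of 46.8 ± 3.65 and 14.4 ± 0.693 (SD, n = 3). CDC6 loads the replicative helicase, and its level at 48 h differed by -1.63 ± 0.06, with an adjusted p of 1.35e-18. At 24 h it was at 109, 108 and 106 against 77.6, 65.4 and 64.5, and at 12 h at 114, 111 and 114 against 106, 109 and 106. DTYMK, the thymidylate kinase, differed by -1.29 ± 0.09. In the redox and globin group TXNRD1, thioredoxin reductase, differed by -1.27 ± 0.05, CYGB by -1.36 ± 0.06 and GLRX, glutaredoxin, by -0.88 ± 0.12, and all 3 were called. The hair keratin gene KRT34, whose reads can be split with its close paralogs, was called at -1.23 ± 0.10, while SCEL, a precursor protein of the cornified envelope, was not. SCEL was at 3.31, 3.4 and 2.45 against 1.59, 1.52 and 1.25 at 24 h and at 3.13, 4.06 and 3.65 against 2.63, 3.49 and 2.45 at 48 h, where the groups overlapped.

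The lowest value of all steady members at 48 h belonged to ALPL, the tissue-nonspecific alkaline phosphatase, at 1:21835858-21904906 (hg19). The 48 h TMM values of ALPL were 8.39, 6.74 and 6.14 in Ad-GFP and 1.03, 0.619 and 0.89 in Ad-TEADi, with means of 7.09 ± 1.17 and 0.846 ± 0.209 (SD, n = 3). The difference was -2.13 ± 0.13, with an adjusted p of 2.53e-13. At 24 h it had been close to the limit of the rule, at 8.57, 7.05 and 5.99 against 5.2, 3.97 and 4.06. ALPL was 1 of 24 steady members placed in none of the groups above, of which 18 were called lower at 48 h. Others were the ubiquitin ligase gene MARCH4 at -1.28 ± 0.06, the polo-like kinase gene PLK2 at -0.89 ± 0.06, PDE1C, a phosphodiesterase of cyclic nucleotides, at -1.30 ± 0.14, DERL3, of protein degradation at the endoplasmic reticulum, at -1.44 ± 0.12 and MIR503HG at -1.38 ± 0.09. TMEM200A and PROSER2 were called at -1.62 ± 0.13 and -1.47 ± 0.07, and JPH1, a junctophilin, at -0.83 ± 0.10. MIR29A was at 1.26, 2.12 and 1.87 against 0.721, 0.84 and 0.556. The call of MIR29A was lost without Ad-GFP replicate 2 of 48 h and with a pseudocount of 5. Its row holds poly(A) reads over the locus of the microRNA miR-29a, not the mature microRNA.

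In all, 10 steady members were not called lower at 48 h, and in 6 of them the libraries overlapped. Besides FAT3, TGM2, ADAMTS12 and SCEL these were HSPE1-MOB4, Z83840.1, SLC7A2, STARD3NL, EEPD1 and RIMS2. STARD3NL, an endosomal protein, was at 15.2, 16.8 and 13 against 10.04, 11.4 and 10.4, lower in every Ad-TEADi library and short of 1.5-fold. RIMS2, known from synapses, was at 0.607, 0.735 and 0.978 against 0.618, 1.15 and 0.556, with full overlap. HSPE1-MOB4 is a readthrough transcript whose reads cannot be told from those of HSPE1 and MOB4, and its 48 h values were 0.161, 2.1 and 3.52 against 2.38, 1.08 and 2.0. At 48 h Z83840.1 was at 0.949, 1.58 and 1.51 against 1.51, 2.61 and 2.17, and HSPE1-MOB4 and Z83840.1 were the only 2 of the 73 steady members with a difference above 0 at that time.

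The response itself differed between 12 h and 48 h for most members. The change of the Ad-TEADi effect from 12 h to 48 h was tested as an interaction term. It was called lower in 59 of the 85 members, all of them steady, where 5.97% of all genes were, and higher in 1, TNFAIP1, where 6.23% were. TNFAIP1 was at 0 reads in all 3 Ad-GFP libraries of 48 h, so no change is read from it, and 0 steady members were called higher. The change was -1.92 ± 0.15 for AKAP12, -1.82 ± 0.19 for ALPL, -1.77 ± 0.16 for PTX3, -1.67 ± 0.14 for FLNC and -1.64 ± 0.07 for THBS1. Of the 6 members already lower at 12 h by adjusted p, EDN1 changed by -1.42 ± 0.15, PROSER2 by -1.19 ± 0.10, CYGB by -1.07 ± 0.09, ETS1 by -0.99 ± 0.07 and MIR503HG by -0.94 ± 0.12, all past both limits. The change of TCF7L1, -0.53 ± 0.08, was below 1.5-fold. The response of S1PR1 changed by -0.67 ± 0.16. That call was lost without Ad-TEADi replicate 3 of 48 h, with a pseudocount of 5 and on the deposited TPM values.

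The members did not share a course in the control cells. In Ad-GFP from 12 h to 48 h, 19 of the 85 were called lower, where 5.28% of all genes were, and 11 were called higher, where 8.36% were. This comparison and the 48 h response share the Ad-GFP libraries of 48 h, so the 2 values of a gene are not independent. Those called higher were LIMCH1, GLRX, KRT34, IL12RB2, PLAT, SCEL, SERPINB2, PTX3, FOXQ1, VGLL1 and MIR503HG. Of the 19 called lower, 18 were steady, and the other was TNFAIP1, at 0 reads in all 3 Ad-GFP libraries of 48 h. Of the 30 calls, 12 were lost under at least 1 alternative setting, those of SCEL, PTX3, FOXQ1, VGLL1 and MIR503HG among them. LIMCH1 went from 4.5, 6.59 and 5.08 at 12 h to 24.9, 17.1 and 18.9 at 48 h in Ad-GFP, a change of 1.73 ± 0.13 with an adjusted p of 1.6e-10. In Ad-TEADi it was at 4.64, 4.47 and 6.07 at 12 h and 8.29, 8.97 and 8.45 at 48 h. PLAT changed by 0.96 ± 0.05, SERPINB2 by 0.92 ± 0.06 and KRT34 by 1.35 ± 0.10. At 48 h the Ad-TEADi libraries of these genes lay below a control that was higher than at 12 h.

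Those called lower over time in Ad-GFP included GREM1, at 23, 19.9 and 19.8 at 12 h and 4.85, 4.76 and 5.43 at 48 h, a change of -1.86 ± 0.10 with an adjusted p of 1.01e-14. CDC6 and E2F1 changed by -1.26 ± 0.06 and -1.20 ± 0.10, CXCL1 by -1.22 ± 0.08, TMEM2 by -1.48 ± 0.06, S1PR1 by -1.02 ± 0.11 and THBS1 by -0.94 ± 0.05. For these genes the Ad-TEADi libraries of 48 h lay below a control that was itself lower than at 12 h. EDN1, CYGB and TXNRD1, by contrast, had control values that differed by 0.00 ± 0.10, 0.05 ± 0.06 and -0.03 ± 0.05 between the times, none of them past either limit.

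**Figure D5:**
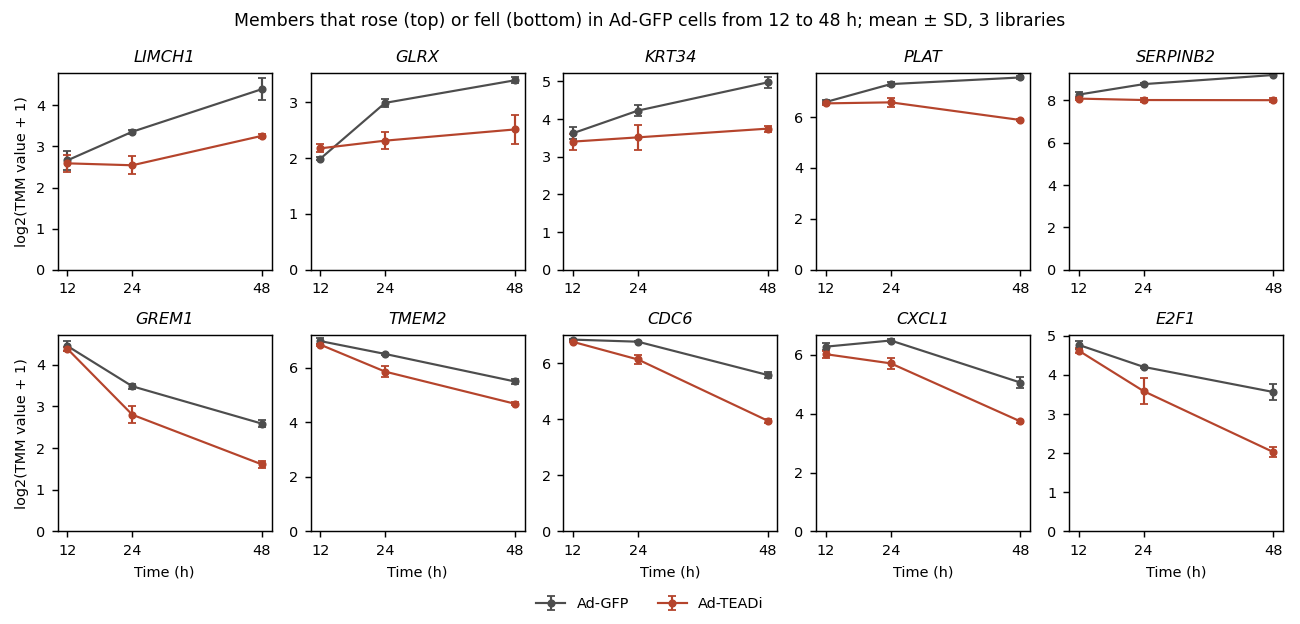
Mean log2(TMM value + 1) with its SD over 3 libraries in Ad-GFP (grey) and Ad-TEADi (red) at 12, 24 and 48 h, for 5 members called higher (top row) and 5 called lower (bottom row) in Ad-GFP at 48 h against 12 h. In every panel the red line is below the grey line at 24 h, by choice of the members, and at 48 h.

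Lists of pathway genes place the members among their neighbours. At 48 h, 6.31% of all genes were called lower and 6.29% higher. The members counted in a list had been chosen for low values at 24 h. Of 25 tested YAP/TAZ-TEAD targets, 9 were called lower and 1 higher at 48 h, with a median of -0.55, against -0.03 for all genes. EDN1 and THBS1 were the list's members, beside CTGF and CYR61, which met the 24 h rule and were set aside by name. None of the list was called at 12 h, and 4 were lower there by adjusted p alone. Of 54 genes of DNA replication and S phase, 45 were called lower at 48 h and 0 higher, with a median of -0.90 (by adjusted p alone, 53 lower and 0 higher), and CDC6 was the list's only member. At 24 h their median difference was -0.29. Of 33 genes of mitosis, 32 were called lower at 48 h with a median of -0.88, and none was a member. Of 30 genes of the E2F, cyclin and CDK list, 12 were called lower, E2F1 among them.

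The other lists held genes of both directions at 48 h, where 6.31% of all genes were called lower and 6.29% higher. In short lists the members, chosen for low 24 h values, weigh in the count of lower calls. Of 30 cytokines and chemokines, 11 were called lower, with IL1B, CXCL1 and TNFSF15 among them beside IL1A, which was set aside by name, and 8 higher. Of 40 genes of the matrix and its proteases, 9 were lower, with THBS1, LOX, HAS2 and PTX3 among them beside ADAMTS1, also set aside by name, and 7 higher. Of 15 inflammasome and innate sensor genes, 2 were lower, NLRP3 among them, and 4 higher. Of 14 genes of plasminogen activation and coagulation, 3 were lower, with PLAT and SERPINB2 among them, and 1 higher. The 27 genes of the SRF and actin list had 4 lower, AKAP12 among them, and 0 higher, with 12 lower and 4 higher by adjusted p alone. The 22 Hippo components had 3 lower, VGLL1 among them, and 0 higher, with 8 lower and 7 higher by adjusted p alone. Of 38 adhesion and guidance genes, 7 were lower, with SEMA3D and DLC1 among them, and 4 higher. Of 13 genes of the sphingosine-1-phosphate pathway, 2 were lower, S1PR1 among them, and 2 higher.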

How the data were processed

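N/TERT2G RNA libraries of Ad-GFP and Ad-TEADi at 12, 24 and 48 h, 3 per group and 18 in all, were grouped by their labels. Reads were trimmed with Trimmomatic 0.36, aligned to hg19 with STAR 2.5.1 and quantified in Partek 8.0.19.0819, by the study's methods for each tool's role and the submitters' processing notes for the versions, which other sources give differently for STAR and Partek. By the methods, genes were also filtered on at least 8 reads. The sources used here do not give strandedness, so overlapping and antisense genes cannot be told apart. The authors deposited TMM-scaled CPM with 1 read added to each estimated count, and TPM, per the file headers and values. The deposited TPM columns sum to 98913 to 99722 in each library. The deposited p-values, fold changes and ratios, and the authors' signed fold score, belong to their own comparisons and were not used. Estimated reads were recovered as the value over the library's lowest value, less 1. Of low reads, 75.3% to 78.1% lay within 0.01 of a whole number, so no count model was fitted and 1 read was worth 0.0339 to 0.0605.

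The 13417 genes that reached 1 in 3 libraries or more were fitted as log2(TMM + 1) with limma 3.58.1 in R 4.3.3 (trend and robust options), as 4 group means over the 12 libraries of 12 h and 48 h. Adjusted p-values are Benjamini-Hochberg values over the 13417 genes. A fold change on this scale understates the change of low genes. The code was tested on simulated data. Depth limits low genes, where few reads carry a value.

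The members and the gene lists were chosen with earlier results of these data known. Genes named by rule were the 12 members lowest at 24 h, up to 8 with the smallest adjusted p under 0.05 that were lower at 12 h, the 10 lowest and the 8 highest at 48 h, up to 4 per list, and the 3 on each side of the limit. Roles of genes are background. The values of 2 members are not reported here, though the counts include them. Lists of ERK response, NF-kB, prostaglandin, growth factor and ion channel genes held no member and appear only in the closing section. Promoters came from RefSeq (GRCh38.p14), by symbol or synonym. The first 6 named members with the TEAD letters were to be shown. RPL7A, TNFAIP1 and GPSM3 were left out after their values were seen, and FLNC and E2F1 were added.

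Alternatives were pseudocounts of 0.1 and 5, TPM values, a mean of at least 10, a call without the fold limit, the replicate number as a block, leaving out single libraries, all 18 libraries in 1 fit, and other choices of members. Added after the data were seen were a fit and a member list without the rows of 0 and 20 or more reads in 1 group, and TPM scaled to the usual total.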

Additional observations from a re-analysis of the deposited data

Results flagged for a closer look

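The response to TEADi differed between 2 times by a test of the difference itself. It was lower at 48 h than at 12 h in 59 of the 85 members and higher in 1, TNFAIP1, by the interaction term of the limma fit, where 5.97% and 6.23% of all genes were. TNFAIP1 was at 0 reads in all 3 Ad-GFP libraries of 48 h, so no change is read from it. In the 5 called members with the lowest values, the difference of the responses was -1.92 for AKAP12, -1.82 for ALPL, -1.77 for PTX3, -1.67 for FLNC and -1.64 for THBS1 on the log2(TMM value + 1) scale. The groups hold 3 libraries each, so single libraries were not tested for standing apart.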

How the results depend on the processing

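The count of members called lower at 48 h, 63 in the report, was 23 on deposited TPM values, 39 in a fit of genes with a mean of at least 10 and 39 for the 45 members with such a mean. It was 7 for the 18 members at -1 or lower at 24 h and 11 for the 21 members that the rule gave on TPM values. At 12 h the 0 calls became 6 by adjusted p alone. The 30 members changed over time in Ad-GFP became 15 on TPM values, 15 in the fit with a mean of at least 10 and 55 by adjusted p alone. The 60 members whose response differed between the times became 19 on TPM values and 38 with a mean of at least 10. Leaving out 1 library at a time gave 0 calls at 12 h, 61 to 64 at 48 h, 29 to 32 over time and 59 to 61 for the difference of responses. The labels do not say whether replicate numbers pair the samples, and correlations over 3 libraries per group cannot settle it. The deviations of Ad-GFP and Ad-TEADi libraries of the same number correlated between -0.059 and 0.096, and with the replicate number as a block the counts were 0, 63, 28 and 60. In all other alternatives the counts stayed within 1.5 times. Of single genes, only the fitted value of GPSM3 at 48 h changed sign with a call, from 1.15, not called, to -0.87 on TPM values. By the TMM values its reads at 48 h were 0 in all 3 Ad-GFP libraries and 200, 0 and 0 in Ad-TEADi. A negative value cannot come from such reads, so the TMM and TPM values disagree on this row. Neither value is read as a direction. Of the 64 calls at 48 h in either direction, 34 were not tested on TPM values, 7 were tested and lost, and 23 kept, while 24 were not tested in the fit with a mean of at least 10 and 0 were lost there. Under the alternatives that tested them, 21 of the 64 were lost at least once, 14 of them with a pseudocount of 5 and 4 when a library was left out. Of the 30 calls over time 12 were lost at least once, and of the 60 for the difference of responses 22 were. At 48 h, calls lost on the deposited TPM values included those of ETS1, TNFSF15, S1PR1, CHRNB1, PLOD2 and GREM1. All of these named calls were kept on TPM scaled to the usual total. On scaled TPM, 12 of the 64 calls were not tested, 8 were lost, TCF7L1, TMEM2 and HAS2 among them, and 44 were kept. Calls lost at 48 h with a pseudocount of 5 included S1PR1, GREM1, VGLL1, FGF1, FOXQ1, HAS2 and GLRX. The causes were not tested. Depth limits the members with a mean under 5, of which there were 26.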

Other observations

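The lists that held no member were mostly mixed at 48 h. Of 32 tested genes of the ERK response and AP-1, 9 were called lower and 2 higher in Ad-TEADi, by the same limma fit, where 6.31% and 6.29% of all genes were. Of 18 genes of the NF-kB pathway and its feedback, 0 were called lower and 2 higher, and by adjusted p alone 3 were lower and 9 higher. Of 15 genes of the prostaglandin and leukotriene pathway, 3 were lower, with PTGS2 and ALOX5AP among them, and 7 higher, of 34 growth factor and receptor genes 6 were lower and 7 higher, and of 31 ion channel and transporter genes 5 were lower, GJA5 among them, and 10 higher. PTGS2, ALOX5AP and GJA5 met the 24 h rule and were set aside by name, at -1.60, -1.91 and -2.03 on the log2(TMM value + 1) scale at 48 h. Of the 15 keratinocyte markers, 1 was called lower and 3 higher.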
